A study of Setaria viridis with 15 samples.

Results

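The gene LOC117858061, described in the authors' deposited tables as a cation transporter HKT8-like, is 1 of 28032 genes in the deposited count table. It was chosen because its level in seedling shoots is graded between bacterial isolates, library by library. Its levels and its differences between groups are therefore given as a description, with no test. It is called HKT8 here.

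HKT proteins are membrane transporters that carry sodium, and in some members potassium as well, into plant cells. In rice, HKT8 is the sodium transporter of the xylem parenchyma: it takes sodium out of the xylem sap on its way to the leaves, and alleles that do this better are known for shoot sodium exclusion and salt tolerance. A shoot cell's sodium and potassium balance also depends on potassium channels and carriers, on vacuolar sodium/proton exchangers and on the proton pumps that energise them.

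The plants were wild-type Setaria viridis, a small C4 grass, and the tissue was the whole shoot. Seedlings aged 5 days were moved, 2 per plate, to a double dish 2 days before bacteria were added: the plants stood on half-strength Murashige and Skoog medium and the bacteria grew on LB medium in a separate small dish, so that the air of a sealed plate was what they shared. The 3 isolates were AI2.2-A with 4 libraries, CTB P6B8 with 3 and MTS P5D6 with 4, each applied as 20 µL of a diluted culture, and the 4 control libraries (mock) came from plates with the LB dish and no inoculum. Co-culture lasted 7 days at 28 °C in the light and 25 °C in the dark under a 12 h photoperiod. No salt treatment is named in the labels, which do not say what kind of bacteria the isolates are. The labels call the libraries of a group biological replicates, without saying how many seedlings or plates went into each, so the spread and the p-values are those between these libraries.

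Library totals ran from 13852517 to 20556455 counts in the controls, from 18222557 to 23919167 in the AI2.2-A group, from 17118899 to 25123025 in the CTB P6B8 group and from 16755755 to 19453085 in the MTS P5D6 group. Levels are given in CPM, which are read counts set against library size after TMM scaling. The tissue label was borne out by 26 photosynthesis and C4 genes, which summed to 30520 to 56686 CPM in every library; 14 root markers summed to 48.7 to 103 CPM. These sums are not per length. The photosynthesis sum was higher in the controls (49614 to 56686 CPM) than with AI2.2-A (33463 to 40606 CPM), CTB P6B8 (31428 to 35926 CPM) or MTS P5D6 (30520 to 34992 CPM). Most of that gap lay in the 3 most abundant C4 genes, with a mean sum of 40320 CPM in the controls and 25327, 23907 and 23614 CPM under the isolates in the same order; the other 23 summed to 11828, 11103, 10351 and 8773 CPM. One library stood apart in 1 respect: CTB P6B8 replicate 3 had 0.184% of its counts on plastid genes, the highest share.

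HKT8 was read 154, 250, 103 and 130 times in control replicates 1 to 4. With AI2.2-A it was read 45, 79, 29 and 74 times, with CTB P6B8 12, 22 and 23 times, and with MTS P5D6 2, 3, 8 and 2 times. No library was without an HKT8 read, but the 4 MTS P5D6 libraries together held 15 reads of it, against 637 in the 4 controls. These are low counts, and much of what follows is limited by them.

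Scaled to depth, the control libraries stood at 10.4, 13.6, 7.86 and 6.72 CPM, with a mean of 9.64 ± 3.05 (SD, n = 4). The AI2.2-A libraries stood at 1.80, 3.63, 1.51 and 3.55 CPM, with a mean of 2.62 ± 1.12 (SD, n = 4), which is 27.2% of the control mean. The 4 controls were all higher than the 4 AI2.2-A libraries. With CTB P6B8 the levels were 0.537, 1.27 and 0.889 CPM, a mean of 0.898 ± 0.365 (SD, n = 3) or 9.31% of control. With MTS P5D6 they were 0.110, 0.163, 0.413 and 0.123 CPM, a mean of 0.202 ± 0.142 (SD, n = 4) or 2.10% of control. The order Control, AI2.2-A, CTB P6B8, MTS P5D6 held for every library, with no overlap between any pair of groups. In the RNA of a whole shoot, fewer cells that use HKT8 and less HKT8 RNA per cell cannot be told apart.

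**Figure D1:**
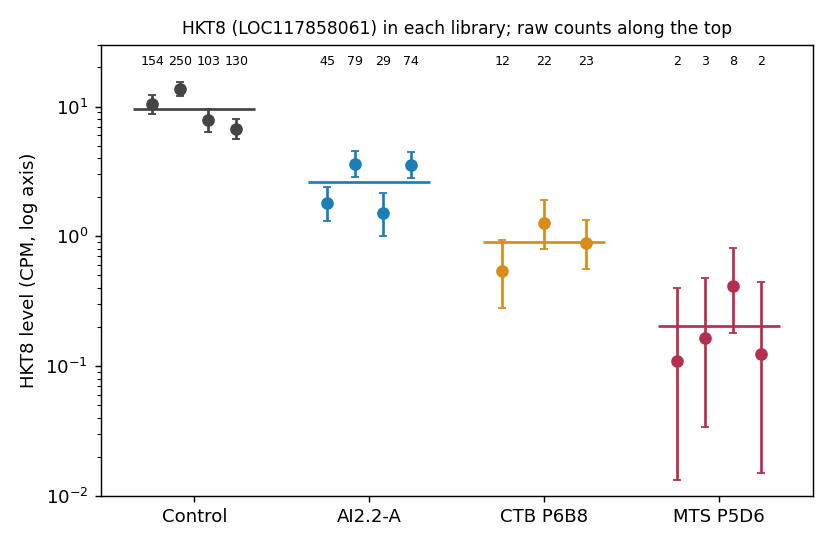
HKT8 level in each library on a log axis of CPM; points are libraries, bars are exact 95% Poisson intervals for counting error only, horizontal lines are group means, and the raw counts stand along the top. The 4 controls lie between 6.72 and 13.6 CPM and the 4 MTS P5D6 libraries between 0.110 and 0.413 CPM, with AI2.2-A and CTB P6B8 between them and no overlap of points.

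The step from the controls to AI2.2-A was the clearest in single libraries: the lowest control was 1.85 times the highest AI2.2-A library. The steps between the isolates were narrow. AI2.2-A replicate 3 at 1.51 CPM was 1.19 times CTB P6B8 replicate 2 at 1.27 CPM, and CTB P6B8 replicate 1 at 0.537 CPM was 1.30 times MTS P5D6 replicate 3 at 0.413 CPM. The 95% counting intervals of each of these facing pairs overlap: 1.01 to 2.17 CPM against 0.794 to 1.92 CPM, and 0.278 to 0.938 CPM against 0.178 to 0.813 CPM. So CTB P6B8 and its neighbours on either side differed in their means by more than their SD, but their nearest libraries could not be separated at this depth. With the counts scaled by library totals alone the order was the same and the facing ratios were 1.63, 1.24 and 1.35.

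The libraries of a group did not carry the same HKT8 level. The highest was 2.02 times the lowest in the controls, 2.40 times with AI2.2-A, 2.36 times with CTB P6B8 and 3.77 times with MTS P5D6, and the coefficient of variation was 31.6%, 42.9%, 40.7% and 70.3% in that order. Set against counting error alone, the spread was 17.2 times it in the controls and 10.3 times it with AI2.2-A, as a chi-square per degree of freedom. With CTB P6B8 it was 3.00 times and with MTS P5D6 1.83 times. The controls and the AI2.2-A libraries thus varied well beyond their reads, while the spread of the MTS P5D6 libraries was nearer to what their 2 to 8 reads give.

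Fitted over all 15 libraries, the HKT8 difference from control was -1.88 ± 0.30 on the log2 scale (SE) with AI2.2-A, a level 3.68-fold lower. With CTB P6B8 it was -3.45 ± 0.39, or 10.9-fold lower, and with MTS P5D6 -5.50 ± 0.44, or 45.3-fold lower. The 3 differences share the same 4 controls. The ratio of summed, scaled counts, control over isolate, had a 95% counting interval of 3.19 to 4.34 around 3.71 for AI2.2-A, of 8.50 to 14.9 around 11.2 for CTB P6B8 and of 28.1 to 84.0 around 46.7 for MTS P5D6. Control and isolate libraries had no overlap in any of the 3. Such full separation below control was found in 22.7% of all 20310 tested genes for AI2.2-A, 25.8% for CTB P6B8 and 25.7% for MTS P5D6. What set HKT8 apart was the size. Counted from the lowest fitted log2 difference of the 20310 genes, it stood 82nd with AI2.2-A, 13th with CTB P6B8 and 2nd with MTS P5D6, a placing that chose it and is no test.

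Between isolates, HKT8 was higher with AI2.2-A than with CTB P6B8 by 1.57 ± 0.40 on the log2 scale (SE), a 2.96-fold difference. It was higher with CTB P6B8 than with MTS P5D6 by 2.05 ± 0.57, or 4.15-fold, and higher with AI2.2-A than with MTS P5D6 by 3.62 ± 0.47, or 12.3-fold. MTS P5D6 replicate 3, with 8 of the 15 reads, carried much of that group's level. Without MTS P5D6 replicate 3 the log2 differences were -6.12 from control, 4.24 for AI2.2-A over MTS P5D6 and 2.67 for CTB P6B8 over MTS P5D6. Without CTB P6B8 replicate 3, the library with the highest plastid share, CTB P6B8 stood at -3.41 from control, 1.56 below AI2.2-A and 2.05 above MTS P5D6. The authors' deposited table for each pair gives, against control, log2 values of -1.85 for AI2.2-A, -3.41 for the CTB P6B8 group and -5.49 for the MTS P5D6 group.

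Few genes shared the full order. Of the 20310 tested, 22 (0.108%) had every control above every AI2.2-A library, every AI2.2-A library above every CTB P6B8 library, and every CTB P6B8 library above every MTS P5D6 library. Another 26 (0.128%) had the exact reverse, and 117 (0.576%) had all 4 groups apart in any of the 24 possible orders. Among the 22, HKT8 had the largest fall with MTS P5D6: the fitted log2 differences from control of the other 21 ran from -2.47 to -0.50, with a median of -1.03. This order is what chose HKT8, so its place among the 22 is a description.

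A second gene, LOC117855466, carries the same description, cation transporter HKT8-like. It was read 23, 18, 7 and 14 times in the controls and 4, 1, 16 and 4 times with AI2.2-A. With CTB P6B8 it was read 1, 3 and 2 times, and with MTS P5D6 1 time in all, in replicate 2. AI2.2-A replicate 3 thus held more reads of it than 2 of the controls, and the other isolate libraries were all below every control.

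By edgeR's quasi-likelihood F test, with p adjusted over all tested genes by Benjamini and Hochberg's method, this second gene fell with AI2.2-A (log2 -1.67 ± 0.56, adjusted p = 0.0227) and with CTB P6B8 (-3.27 ± 0.75, adjusted p = 0.00236). It also fell with MTS P5D6 (adjusted p = 0.000169), where the single read allows no firm fold: the control to MTS P5D6 ratio of scaled counts was 68.2 with a 95% counting interval of 11.8 to 2738. AI2.2-A exceeded MTS P5D6 (adjusted p = 0.0117), and the other pairs of isolates did not pass (adjusted p = 0.243 for AI2.2-A and CTB P6B8, 0.269 for CTB P6B8 and MTS P5D6). The call with AI2.2-A was lost in DESeq2 (adjusted p = 0.0620) and when control replicate 1 (0.0807) or AI2.2-A replicate 1, 2 or 4 (0.0536 to 0.0666) was left out. Without AI2.2-A replicate 3 the fall was -2.77 (adjusted p = 0.000782). The gene passed the count filter mainly through the controls, at 0.534 to 1.55 CPM. Of the isolate libraries only AI2.2-A replicate 3 reached that range, at 0.833 CPM. A gene kept by its controls can hardly show a rise, so the filter partly set the direction of these calls. When no count filter was used each fall was still called (edgeR adjusted p = 0.0297, 0.00263 and 0.000138, in the order of the isolates above).

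The second gene held 8.87% of the reads of both HKT8-like genes in the controls (exact 95% interval 6.87 to 11.2%). Its share was 9.92% in the AI2.2-A group (6.52 to 14.3%), 9.52% in the CTB P6B8 group (3.58 to 19.6%) and 6.25% in the MTS P5D6 group (0.158 to 30.2%). These group shares were close, but the 4 AI2.2-A libraries ran from 1.25% to 35.6%. The 35.6% belonged to replicate 3, the AI2.2-A library with the lowest HKT8 level. How alike the transcripts of the 2 genes are, and so whether reads could be split between them in counting, was not analysed here. With the counts of both genes summed, the log2 differences from control were -1.86, -3.44 and -5.55, close to those of HKT8 alone.

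Most of the other HKT genes did not fall below control as HKT8 did. Of the 7 HKT genes beside it, 6 were tested. With AI2.2-A 5 were called higher and 1 lower, where 23.4% of all tested genes were called higher and 24.3% lower. With CTB P6B8 1 was called higher and 1 lower (22.6% and 22.7% of all), and with MTS P5D6 1 higher and 2 lower (23.9% and 28.3% of all). The median log2 difference of the 6 was 0.94, 0.29 and -0.24, against -0.00, 0.00 and -0.05 for all tested genes. The gene called lower with all 3 isolates was the second HKT8-like gene. Between isolates, 2 of the 6 were called, both higher with AI2.2-A than with CTB P6B8 (4.53% of all tested genes were called higher and 5.86% lower, 10.4% in all). Against MTS P5D6, 4 were called, all higher with AI2.2-A (23.8% and 21.4% of all, 45.2% together), and 1 was called, higher with CTB P6B8 (15.2% and 11.1% of all, 26.3% together). The median log2 difference of the 6 was 0.82 for AI2.2-A over CTB P6B8 and 1.77 for AI2.2-A over MTS P5D6. For CTB P6B8 over MTS P5D6 it was 0.74. By these medians the isolates stood in the same order as for HKT8, but the second HKT8-like gene is among the 6. The tested HKT4-like genes went the other way for the last pair. As each library was left out, LOC117853968 ran from -0.32 to 0.038 against control in the CTB P6B8 group. In the MTS P5D6 group it ran from 0.15 to 0.37. LOC117853969 ran from 0.59 to 1.17 and from 0.92 to 1.44 in the same order, ranges that overlap. The ranges of the other tested genes lay higher in the CTB P6B8 group.

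HKT6 (LOC117864427), whose rice namesake is a sodium transporter of the same subfamily as HKT8, was read 7, 6, 6 and 2 times in the controls, 34, 75, 20 and 37 times with AI2.2-A, 26, 18 and 26 times with CTB P6B8, and 3, 7, 13 and 11 times with MTS P5D6. Every AI2.2-A and CTB P6B8 library was above every control in CPM. How many of all tested genes were so separated above control was not counted here. With few reads in the controls, HKT6 passed the count filter mainly through the isolate libraries. It rose by 2.53 ± 0.47 with AI2.2-A (log2, edgeR adjusted p = 0.000414) and by 1.70 ± 0.52 with CTB P6B8 (adjusted p = 0.0142), the latter call being lost without control replicate 4. With MTS P5D6 its difference of 0.53 ± 0.56 did not pass (adjusted p = 0.448), and AI2.2-A exceeded MTS P5D6 by 2.00 (adjusted p = 0.00151). So AI2.2-A plants had less HKT8 and more HKT6 than the controls.

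HKT7 (LOC117864253), in rice a transporter that withdraws sodium from the xylem of leaf sheaths, stood at 0.684 ± 0.147 CPM in the controls (SD, n = 4) and 1.37 ± 0.393 CPM with AI2.2-A (n = 4). It stood at 1.20 ± 0.352 CPM with CTB P6B8 (n = 3) and 0.407 ± 0.185 CPM with MTS P5D6 (n = 4). It rose with AI2.2-A (log2 0.99 ± 0.31, edgeR adjusted p = 0.0146), and the differences with CTB P6B8 (0.77, adjusted p = 0.0705) and MTS P5D6 (-0.74, adjusted p = 0.0991) did not pass. Like HKT8 it was lower with MTS P5D6 than with AI2.2-A (log2 difference 1.73, adjusted p = 0.000539) and than with CTB P6B8 (1.51, adjusted p = 0.00571).

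HKT9 (LOC117853838) stood at 2.23, 1.96, 0.916 and 0.879 CPM in the controls and 3.23, 2.85, 2.86 and 2.16 CPM with AI2.2-A. It rose with AI2.2-A (log2 0.89 ± 0.32, edgeR adjusted p = 0.0319) and fell with MTS P5D6 (-0.91 ± 0.37, adjusted p = 0.0486), a fall that was lost in 17 of 24 alternatives. The controls themselves spread widely in it. Of the HKT4-like genes, LOC117853969 rose with AI2.2-A (1.00 ± 0.32, adjusted p = 0.0167) and MTS P5D6 (1.09 ± 0.32, adjusted p = 0.00997). LOC117853968 rose with AI2.2-A (0.61 ± 0.22, adjusted p = 0.0344). LOC117864256 was too low to be tested, with 2 reads over the controls, 16 over the AI2.2-A libraries, 5 over the CTB P6B8 ones and 10 over the MTS P5D6 ones. The calls with AI2.2-A were lost in 5 of 24 alternatives for HKT9, in 3 for LOC117853969 and in 6 for LOC117853968.

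**Figure D2:**
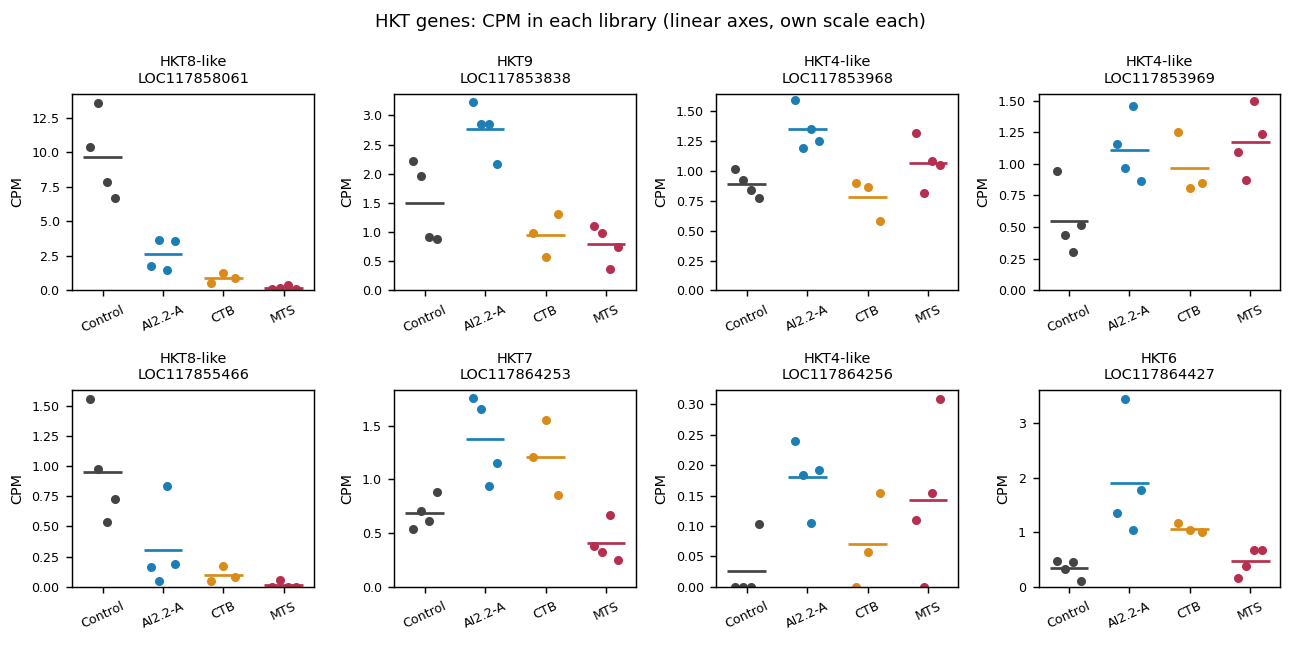
CPM of HKT8 and the 7 other HKT genes in each library, on linear axes that each start at 0 and have their own scale; points are libraries and lines are group means. The 2 HKT8-like genes step down from the controls to MTS P5D6, while the HKT6 and HKT7 panels peak with AI2.2-A.

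HKT8 is part of a wider set of sodium, potassium and proton transport genes. Lists of channels, carriers, exchangers and pumps held 120 genes with the other HKT genes, of which 105 were tested. With AI2.2-A 23 were called higher and 32 lower, or 52.4% called, against 47.7% of all tested genes. With CTB P6B8 22 and 32 were called (51.4%, against 45.4% of all), and with MTS P5D6 27 and 36 (60.0%, against 52.2% of all). Their median log2 differences were -0.07, -0.07 and -0.03, with members called in both directions. The HKT8 value was below 104 of the 105 with AI2.2-A, below all 105 with CTB P6B8 and below 104 with MTS P5D6. The exceptions were an ATPase 2, plasma membrane-type-like gene (LOC117841399) at -3.19 with AI2.2-A and, with MTS P5D6, the second HKT8-like gene.

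**Figure D3:**
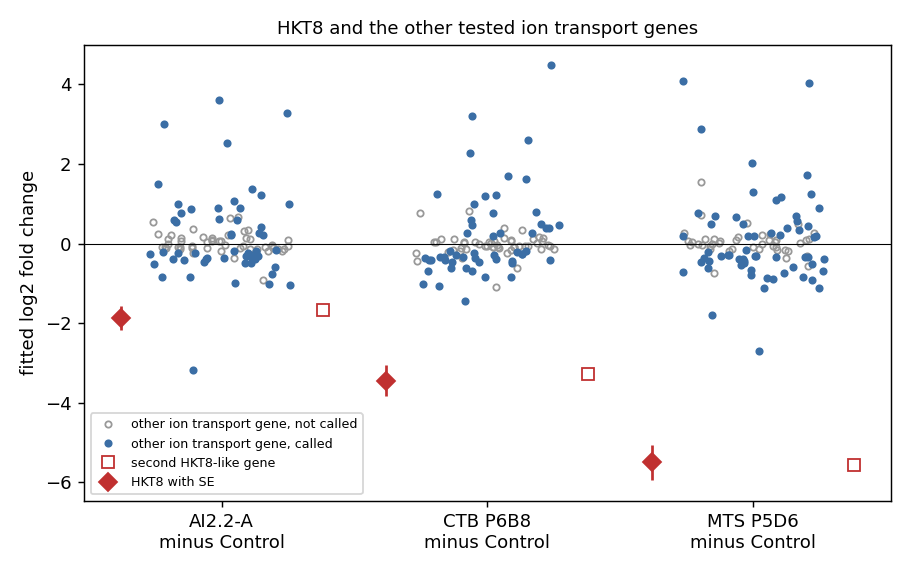
Fitted log2 difference from control of HKT8 (diamonds with SE), the second HKT8-like gene (open squares) and the other tested ion transport genes (dots, filled where the adjusted p is under 0.05). HKT8 lies at -1.88, -3.45 and -5.50, and most of the other genes lie near 0; the square for MTS P5D6 rests on 1 read and depends on the prior count of the fit.

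The potassium channels named here differed from control by far less than HKT8 did. The KAT2-like channel (LOC117855762), of a type that in Arabidopsis lets potassium into guard cells, fell by 0.83, 1.07 and 1.13 on the log2 scale, the isolates being in the order used so far (edgeR adjusted p = 5.45e-05, 1.75e-05 and 2.53e-06). The AKT1-like channel (LOC117856363), a potassium uptake channel in roots of Arabidopsis, rose by 0.76, 0.49 and 0.67 (adjusted p = 9.48e-05, 0.00541 and 0.000201). A two-pore potassium channel a-like gene (LOC117838219) fell by 0.37, 0.29 and 0.37 (adjusted p = 0.00436, 0.0284 and 0.00409), the CTB P6B8 call being lost in 9 of 24 alternatives.

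Among the potassium carriers 24 were tested. With AI2.2-A 9 were called higher and 7 lower (23.4% and 24.3% of all tested genes), with CTB P6B8 10 and 6 (22.6% and 22.7% of all), and with MTS P5D6 11 and 10 (23.9% and 28.3% of all). Potassium transporter 5 (LOC117858731), in rice a high-affinity potassium carrier, rose by 1.38, 1.22 and 2.02 (edgeR adjusted p = 2.44e-05, 0.000144 and 4.63e-07), most with the isolate where HKT8 was lowest (MTS P5D6 over AI2.2-A, adjusted p = 0.00661, and over CTB P6B8, adjusted p = 0.00593). Potassium transporter 10-like (LOC117852311) rose by 0.56, 0.76 and 0.58 (adjusted p = 1.16e-05, 1.67e-06 and 4.61e-06). The genes furthest above control were singled out after their values were seen, so no test is given for them. They were potassium transporter 21-like (LOC117836930) with AI2.2-A at 3.61, and potassium transporter 16 (LOC117839687) with CTB P6B8 at 4.48 and MTS P5D6 at 4.08. Potassium transporter 16 went from 7 reads over the controls to 94, 153 and 136, so it passed the count filter only through isolate libraries.

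Vacuolar sodium/proton exchangers move sodium or potassium into the vacuole. Sodium/hydrogen exchanger 2 (LOC117843405) stood at 162 ± 21.3 CPM in the controls (SD, n = 4) and 381 CPM with MTS P5D6. It rose by 0.88 with AI2.2-A and 1.24 with MTS P5D6 (edgeR adjusted p = 0.000254 and 8.66e-06), and its 0.40 with CTB P6B8 did not pass (adjusted p = 0.0594). The chloroplast potassium efflux antiporters 1 (LOC117849470) and 3 (LOC117851035) fell with every isolate, from -0.36 to -1.03 on the log2 scale (adjusted p from 4.15e-07 to 0.00105). Plasma membrane ATPase 1 (LOC117848889), a proton pump, differed by -0.03 with AI2.2-A (adjusted p = 0.750) and fell by 0.37 with CTB P6B8 (adjusted p = 0.0017) and by 0.70 with MTS P5D6 (adjusted p = 2.07e-06). It was lower with CTB P6B8 than with AI2.2-A (adjusted p = 0.0168) and lower with MTS P5D6 than with CTB P6B8 (adjusted p = 0.00781), the order of HKT8 among the isolates. The pyrophosphate-driven vacuolar proton pump (LOC117852966) fell by 0.76, 0.48 and 0.43 (adjusted p = 1.78e-05, 0.00177 and 0.00168).

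The other members named from these lists were smaller or less regular. The plasma membrane ATPase 2 gene above was called lower with AI2.2-A (-3.19, edgeR adjusted p = 0.000174), CTB P6B8 (-1.43, adjusted p = 0.0303) and MTS P5D6 (-1.79, adjusted p = 0.00535). In the CTB P6B8 group it rested on 10, 71 and 20 reads and without replicate 2 it stood at -2.87. That call was lost in 5 of 24 alternatives: without CTB P6B8 replicate 1 (-0.96, adjusted p = 0.120) or 3 (adjusted p = 0.159), without control replicate 2 (adjusted p = 0.0772) or 3 (adjusted p = 0.0504), and with only the groups compared (adjusted p = 0.0615). The vacuolar proton pump subunit a3 gene (LOC117837047) fell by 0.38, 0.60 and 0.37 (adjusted p = 0.000917, 5.15e-05 and 0.00087). A cyclic nucleotide-gated ion channel 4-like gene (LOC117846882) fell by 1.01, 0.61 and 1.11 (adjusted p = 0.000256, 0.0151 and 9.27e-05), the CTB P6B8 call being lost without CTB P6B8 replicate 3 (adjusted p = 0.0803). The vacuolar cation/proton exchanger 2 gene (LOC117836135) rose by 1.08, 0.60 and 0.90 (adjusted p = 9.18e-05, 0.0137 and 0.000351).

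Sodium/hydrogen exchanger 6-like (LOC117843633) fell by 0.49 with AI2.2-A (edgeR adjusted p = 0.00106) and rose by 0.28 with MTS P5D6 (adjusted p = 0.0334, lost in 4 of 24 alternatives), with no call for CTB P6B8 (adjusted p = 0.995). Cyclic nucleotide-gated ion channel 2 (LOC117840025) rose by 0.26 with CTB P6B8 (adjusted p = 0.0226, lost in 3 of 24 alternatives) and fell by 0.50 with MTS P5D6 (adjusted p = 9.7e-05), and its 0.12 with AI2.2-A did not pass (adjusted p = 0.241). A cation/calcium exchanger 1-like gene (LOC117847428) rose by 1.24 with CTB P6B8 and 1.16 with MTS P5D6 (adjusted p = 0.000375 and 0.000279), and its 0.32 with AI2.2-A did not pass (adjusted p = 0.231). The two-pore potassium channel c gene (LOC117842399) passed with no isolate (adjusted p = 0.102, 0.661 and 0.277).

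In the salt overly sensitive pathway, the calcium sensor CBL4 and the kinase CIPK24 activate a sodium exporter in Arabidopsis and rice. The list for this pathway held those 2 genes and not the exporter, whose level is not given here. CBL4 (LOC117848608) stood at 18.6 CPM in the controls and 29.2 CPM with MTS P5D6, a rise of 0.65 ± 0.12 on the log2 scale (edgeR adjusted p = 0.000251). CIPK24 (LOC117852976) rose by 0.33 ± 0.08 with MTS P5D6 (adjusted p = 0.00198). Neither passed against control with AI2.2-A (adjusted p = 0.101 and 0.844) or CTB P6B8 (0.966 and 0.508). Both were higher with MTS P5D6 than with AI2.2-A (adjusted p = 0.00905 and 0.00162) and than with CTB P6B8 (0.00169 and 0.0306), so the group with least HKT8 had most of both.

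Relatives of factors known to act on HKT genes, namely type-B cytokinin response regulators and ABI4 in Arabidopsis and the clock protein PRR73 in rice, were represented by 9 genes (6, 2 and 1 in that order). Of the 8 tested, 3 were called higher and 4 lower with AI2.2-A, where 23.4% and 24.3% of all tested genes were. With CTB P6B8 2 were called higher and 4 lower (22.6% and 22.7% of all), and with MTS P5D6 also 2 and 4 (23.9% and 28.3% of all). The response regulator ORR24-like (LOC117843690) fell by 0.45, 0.52 and 0.96 (edgeR adjusted p = 0.000208, 0.000152 and 1.63e-07), with MTS P5D6 below both AI2.2-A (adjusted p = 0.000105) and CTB P6B8 (adjusted p = 0.00163). ORR26-like (LOC117856943) fell by 0.69, 0.45 and 0.76 (adjusted p = 8.53e-05, 0.0048 and 2.68e-05), the CTB P6B8 call being lost without CTB P6B8 replicate 3 (adjusted p = 0.0534). The ABI4-like gene (LOC117854941) rose by 0.96, 0.76 and 1.38 (adjusted p = 0.000406, 0.00445 and 1.12e-05). Whether any of these acts on HKT8 in Setaria viridis was not tested.

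Because HKT8 in rice belongs to the xylem parenchyma, markers of vascular tissue are given beside its levels. The 10 xylem genes, secondary wall cellulose synthases and their NAC regulators among them, summed to 165 to 217 CPM in the controls, 160 to 193 CPM with AI2.2-A, and less in the CTB P6B8 group (125 to 135 CPM) and the MTS P5D6 group (105 to 131 CPM). Of 9 tested, 2 were called higher and 1 lower with AI2.2-A (23.4% and 24.3% of all tested genes). With CTB P6B8 2 were called higher and 5 lower (22.6% and 22.7% of all), and with MTS P5D6 likewise 2 and 5 (23.9% and 28.3% of all). The 5 phloem markers summed to 325 to 396 CPM over all libraries. No xylem or phloem marker was at 0 in a whole group. The 14 root markers summed to 52.4 to 59.0 CPM in the controls, 69.7 to 103 CPM with AI2.2-A, 67.4 to 73.4 CPM in the CTB P6B8 group and 48.7 to 81.5 CPM in the MTS P5D6 group. A single cortical cell-delineating protein-like gene (LOC117841090) made up most of this root sum. Its mean was 45.7 CPM in the controls and 76.2, 60.7 and 50.3 CPM under the isolates. The calls of the 7 root markers tested did not follow the sums. AI2.2-A had 3 higher and 1 lower (23.4% and 24.3% of all tested genes). CTB P6B8 had 0 higher and 3 lower (22.6% and 22.7% of all), and MTS P5D6 had 1 higher and 4 lower (23.9% and 28.3% of all). With 7 genes these counts are too small to set against those shares. The sum of these 10 xylem genes was below every control in each CTB P6B8 and MTS P5D6 library, as HKT8 was. Most of that sum was cellulose synthases 4, 7 and 9. In the controls their means were 57.0, 37.7 and 52.8 CPM, and with MTS P5D6 26.2, 20.2 and 24.3 CPM. The NAC regulators went both ways. LOC117839892 had a mean of 18.4 CPM in the controls and 22.7, 22.2 and 28.9 CPM under the isolates. LOC117862871 went from 8.80 CPM to 4.19, 2.85 and 3.05 CPM. Laccases, 43 genes that were split from the xylem list after the counts were seen, summed to 699 to 868 CPM in the controls, 669 to 746 CPM with AI2.2-A, 694 to 1259 CPM in the CTB P6B8 group and 624 to 789 CPM in the MTS P5D6 group. With them in the list the direction turns for CTB P6B8: the mean sum of the 53 genes was 999.7 CPM in the controls, 889.7 CPM with AI2.2-A, 1058 CPM with CTB P6B8 and 802 CPM with MTS P5D6, with CTB P6B8 libraries from 828 CPM (replicate 1) to 1384 CPM (replicate 2). The mean of the 10 with MTS P5D6 was 117 CPM against 192 CPM in the controls, and that of HKT8 was 0.202 against 9.64 CPM; the part of the xylem markers in the HKT8 result was not tested.

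The genes whose pattern was most like that of HKT8 were found by centring each gene's log2 CPM on its mean over the 15 libraries and taking the root mean square distance to HKT8. Of 13858 genes with enough reads and an informative description, the 8 nearest had distances of 0.734 to 1.18 log2 units, the 9th also 1.18, and the median gene 1.96. They were selected on these values, so no test is given. HKT8 itself had a mean log2 CPM of 0.73, below the 1 asked of the genes ranked. The prior count of 2 raises its log2 CPM with MTS P5D6, where it had 2 to 8 reads, so its profile is compressed there. Of the tested genes, 27 had a profile that spread as widely as that of HKT8, and none of the 8 had its fully separated order of groups.

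The nearest was a laccase-12-like gene (LOC117856072), of a family of lignin-polymerising oxidases, at a distance of 0.734. Its control libraries stood at 12.2, 9.24, 10.5 and 9.62 CPM and the AI2.2-A libraries at 3.95, 5.37, 3.54 and 2.74 CPM. With CTB P6B8 it stood at 2.82, 2.07 and 2.32 CPM, and with MTS P5D6 at 0.548, 0.652, 0.877 and 0.617 CPM. It differs from the HKT8 order only in that AI2.2-A replicate 4 lay below CTB P6B8 replicate 1. The second nearest was the kinase CIPK5 (LOC117858243, distance 0.919), of a family that works with calcineurin B-like calcium sensors, with means of 53.7, 18.1, 12.8 and 5.05 CPM in the order Control, AI2.2-A, CTB P6B8, MTS P5D6.

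Next was a sucrose:sucrose 1-fructosyltransferase-like gene (LOC117861538, 0.941), the entry enzyme of fructan synthesis, with means of 342, 85.9, 131 and 16.2 CPM. Unlike HKT8 it stood higher with CTB P6B8 than with AI2.2-A. A protodermal factor 1-like gene (LOC117847151, 1.04) had means of 19.7, 15.4, 8.25 and 3.12 CPM. A second laccase-12-like gene (LOC117847269, 1.09) had means of 13.8, 2.67, 1.83 and 1.68 CPM. The last 3 of the 8 were a heat stress transcription factor C-2a-like gene (LOC117842933, 1.17), an expansin-B3-like gene (LOC117836062, 1.18), of wall-loosening proteins, and an endo-1,4-beta-xylanase 1-like gene (LOC117840455, 1.18), named for the hydrolysis of xylan.

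In the opposite direction, thiamine thiazole synthase 2 (LOC117853273), of thiamine synthesis, was nearest to the mirror image of HKT8 at 0.759. It stood at 8.71 ± 1.18 CPM in the controls (SD, n = 4), 45.2 ± 8.90 CPM with AI2.2-A (n = 4), 67.4 ± 30.1 CPM with CTB P6B8 (n = 3) and 160 ± 26.2 CPM with MTS P5D6 (n = 4). The next were an abscisic stress-ripening protein 1-like gene (LOC117859125, 0.878), an auxin-induced protein 15A-like gene (LOC117853135, 0.944) and the zinc finger gene ZAT12-like (LOC117837161, 0.952). The auxin-induced gene was the 1 of these 4 whose groups were fully apart in the reverse of the HKT8 order, with means of 0.460, 1.99, 4.32 and 6.54 CPM.

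**Figure D4:**
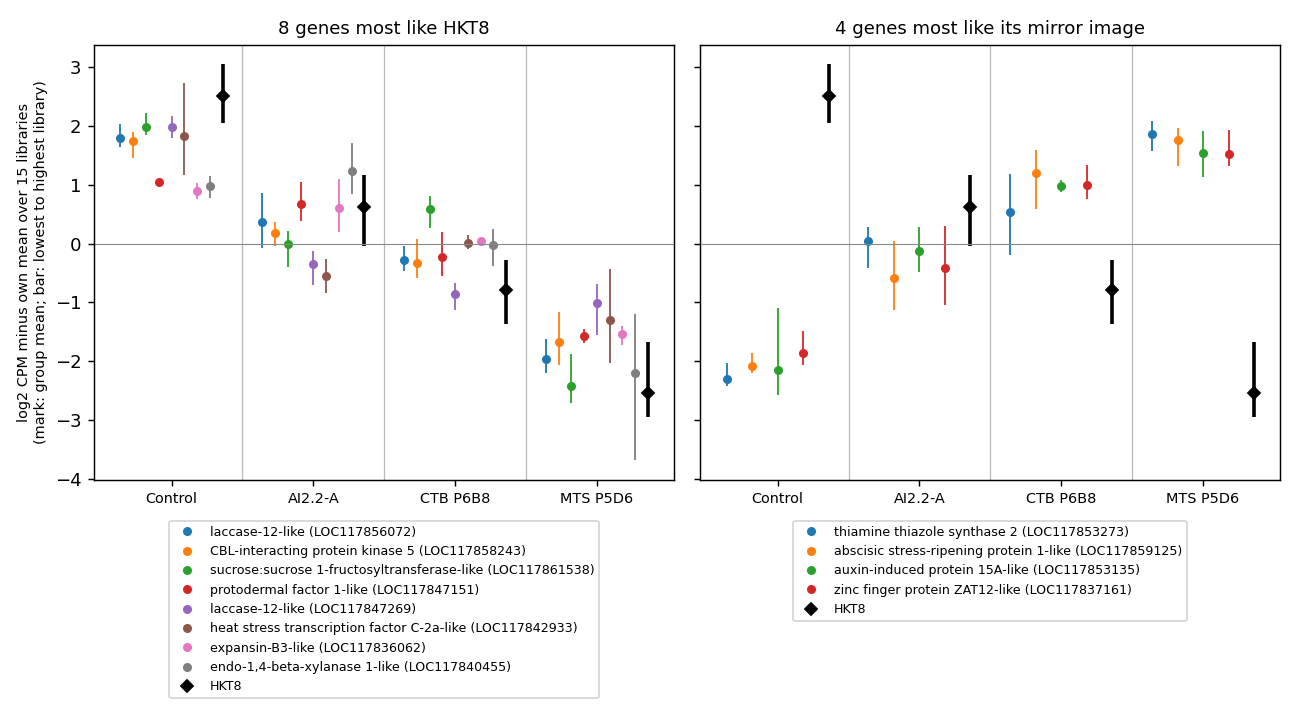
Log2 CPM of each gene minus its own mean over the 15 libraries, for HKT8 (black), the 8 genes nearest to it (left) and the 4 nearest to its mirror image (right), by group; marks are group means and bars run from the lowest to the highest library. HKT8 runs from 3.05 in the highest control to -2.96 in the lowest MTS P5D6 library.

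In a RefSeq gene table (assembly Setaria_viridis_v4.0), from which only names and gene order were taken, the gene next to HKT8 on one side is a lysophospholipid acyltransferase LPEAT1-like gene (LOC117858062), of phospholipid metabolism. It stood at 9.79 CPM in the controls and at 9.55, 9.31 and 10.9 CPM under the isolates, and did not pass against control with any of them (edgeR adjusted p = 0.811, 0.635 and 0.231). The gene beyond it, a putative methyltransferase (LOC117855001), rose by 2.12, 2.12 and 2.02 on the log2 scale (adjusted p = 5.89e-06, 1.05e-05 and 5.25e-06). The 2 genes on the other side, LOC140223028 and the pseudogene LOC140223029, were not analysed here. No neighbour overlaps HKT8 in that table.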

How the data were processed

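Raw read counts per gene for 15 shoot RNA-seq libraries were used as deposited by the authors, with no normalization. Per the labels' protocols, the TruSeq Stranded Total RNA kit was used. Tools named in the submitters' processing notes are HISAT2, featureCounts, Trimmomatic, FastQC and DESeq2 1.6.3. The sources used here do not give the build, annotation or strand setting, so genes that overlap or are near-identical may have shared reads. The authors also deposited 6 tables of comparisons with a mean normalized signal, a log2 fold change with its SE, a test score and a p-value per gene. From them came the descriptions (23214 genes), with 26219 identifiers found in a RefSeq gene table.

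CPM used TMM factors. The 20310 genes that passed filterByExpr were fitted with edgeR 4.0.16 in R 4.3.3 (quasi-likelihood F test, two-sided, 4 groups in one fit, no replicate block). A gene was called where its p, adjusted over all tested genes by Benjamini and Hochberg's method, was under 0.05. The SE is the log2 difference divided by the square root of F. Likeness used log2 CPM with a prior count of 2 and genes with a mean of at least 1. Counting intervals are exact (Poisson or binomial, 95%) and cover counting error only: reads are not independent molecules.

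The gene was chosen, and the lists were written, with earlier results of these data known. After the counts were seen, HAKAI and a two-pore calcium channel were dropped from the lists and laccases were split from the xylem markers. Named were the other HKT genes, the 2 members of each transport list and the 3 regulators with the smallest p, the 8 nearest and 4 mirror genes, and the 2 genes on each side. No library was a copy of another: over the 21 within-group pairs, chi-square divided by its degrees of freedom was 2.69 to 21.4. The procedure was tested on simulated data. Alternatives covered scaling, filters, DESeq2 1.42.0, limma 3.58.1, the libraries fitted, replicate blocks, the threshold and each library left out.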

Additional observations from a re-analysis of the deposited data

Results flagged for a closer look

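In groups of 4 libraries, a value was marked where its gap to the nearest other library was too large a part of the group's range by Dixon's 95% critical value. This was done for 135 groups of 45 genes, and 7 (5.19%) were marked. Chance alone marks about 1 in 20 where values are normally spread, a rate that does not hold for very low counts. HKT8 itself had no such library, but MTS P5D6 replicate 3 (0.413 CPM, the others 0.110 to 0.163 CPM) was just under the mark. The second HKT8-like gene (LOC117855466) was marked in MTS P5D6 replicate 2 at 0.0544 CPM, its only read among 4 libraries, the others being at 0. The untested HKT4-like gene LOC117864256 was marked in control replicate 4 at 0.103 CPM, the other controls being at 0. Where all other libraries of a group are at 0, any read is marked, so both of these marks were fixed in advance. Sodium/hydrogen exchanger 2 (LOC117843405) was low in MTS P5D6 replicate 3 at 300.2 CPM, the others at 395 to 415 CPM. That library also held the most HKT8 reads of its group. Plasma membrane ATPase 1 (LOC117848889) was high in control replicate 1 at 241 CPM. Among the mirror genes, thiamine thiazole synthase 2 (LOC117853273) was high in control replicate 3 at 10.5 CPM, the auxin-induced gene (LOC117853135) in control replicate 1 at 0.945 CPM, and ZAT12-like (LOC117837161) in MTS P5D6 replicate 4 at 11.0 CPM. None of these was weighed further.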

How the results depend on the processing

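Leaving out 1 library could hardly move a difference by more than the spread between replicates, so that bound says little for those alternatives. Across 25 alternatives for each of the 6 pairs of groups, the HKT8 difference kept its direction and moved by less than that spread. Its log2 value ran from -2.15 to -1.66 (AI2.2-A against control), -3.73 to -3.18 (CTB P6B8), -6.12 to -5.29 (MTS P5D6), 1.30 to 1.85 (AI2.2-A over CTB P6B8), 3.40 to 4.24 (AI2.2-A over MTS P5D6) and 1.77 to 2.67 (CTB P6B8 over MTS P5D6). Summing both HKT8-like genes was chosen after seeing the data. Under the other likeness measure, prior count and scalings, 7 or 8 of the 8 nearest and 3 or 4 of the 4 mirror genes were shared.

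By title number no pairing of the samples was seen. Of 21 same-numbered pairs 7 correlated above 0.1 (range -0.375 to 0.417), and 7 of 42 library and group pairs correlated best with their own number. Pairing by description number, where MTS P5D6 is numbered otherwise, was not checked in this way. With a replicate block by title number HKT8 stood at -1.89, -3.44 and -5.49, and by description number at -1.92, -3.39 and -5.46. In the second block MTS P5D6 replicate 4 stands alone in its level and so adds nothing to the differences. That block gave 2786 calls between CTB P6B8 and MTS P5D6, against 5347.

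Other counts moved as follows. At an adjusted p under 0.01, ion transport genes called lower with AI2.2-A fell to 20 from 32 and higher with CTB P6B8 to 12 from 22, and all calls to 489 from 2110 (AI2.2-A and CTB P6B8) and 2574 (CTB P6B8 and MTS P5D6). With total counts only, 19 ion transport genes were lower with AI2.2-A; that scaling shifts the median of all genes to 0.13, 0.10 and -0.02 against control. With only the groups compared, AI2.2-A and CTB P6B8 had 871 calls. Leaving out 1 library gave 644 to 2464 calls for that pair (lowest without CTB P6B8 replicate 2), 3345 to 5649 for CTB P6B8 and MTS P5D6 and 21 to 33 lower ion transport genes with CTB P6B8 (both lowest without CTB P6B8 replicate 3). HKT4-like LOC117853968, not called with CTB P6B8, went to 0.038 without CTB P6B8 replicate 3 (range -0.32 to 0.038). Of 71 called differences of named genes, 12 were lost in at least 1 of 24 alternatives, and 3 others were gained. The cause was not tested. Depth limits MTS P5D6 most, where HKT8 rests on 2 to 8 reads a library.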
